A study of Rattus norvegicus with 6 samples.

Results

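The potassium channel genes of the rat kidney cortex are described here, taken as every RefSeq symbol that begins with Kcn and is represented on the array, apart from 1 symbol that the rule leaves out. The array carried 173 probes for 90 such genes. Of these, 59 were detected, meaning that at least 1 group had all 3 of its arrays marked well above background for a probe, and 31 were not. They sit among 31179 genes tested in all, of which 12276 had a symbol.

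Renal cortex came from 6 male Sprague-Dawley (Crl:CD(SD)) rats bought at 5 weeks of age and kept on a basal diet. For 4 weeks, 3 rats received corn oil, the vehicle, and 3 received 1000 mg/kg/day of benzyl acetate, an ester used in fragrances and flavourings. Each rat gave 1 array hybridised with Cy3-labelled RNA, and the animals are biological replicates. The route of dosing and the age at sampling are not given in the sources used here.

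Potassium channels are membrane pores selective for potassium. In the kidney they set the membrane voltage that drives sodium and bicarbonate transport, recycle potassium across the cell for the sodium pump and the loop cotransporter, and secrete potassium into the urine. The Kcn genes encode inward rectifiers (Kcnj), leak channels with tandem pores (Kcnk), voltage-gated channels (Kcna, Kcnb, Kcnc, Kcnd, Kcnh and Kcnq), channels opened by calcium or sodium (Kcnma, Kcnn and Kcnt) and accessory subunits (Kcnab, Kcne, Kcnip, Kcnmb and the regulator Kcnrg). A further group, Kcnf, Kcng, Kcns and Kcnv, encodes electrically silent subunits. These form no channel of their own and modify Kcnb channels when they co-assemble with them.

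RefSeq promoter sequences of the GRCr8 assembly were matched by symbol for 61 of the 90 genes (67.8%). With under 80% matched, a comparison of promoters between detected and undetected members would be void and was not made. The 250 bases before the start are shown for 4 detected members. Kcns3 and Kcnk5 had the lowest p-values on the lower and the higher side among members that were above background on all 6 arrays. Kcnj16 and Kcnj15 are inward rectifiers of the tubule. Capitals mark CpG dinucleotides.
Kcns3 (chr6:39584106-39584355, - strand): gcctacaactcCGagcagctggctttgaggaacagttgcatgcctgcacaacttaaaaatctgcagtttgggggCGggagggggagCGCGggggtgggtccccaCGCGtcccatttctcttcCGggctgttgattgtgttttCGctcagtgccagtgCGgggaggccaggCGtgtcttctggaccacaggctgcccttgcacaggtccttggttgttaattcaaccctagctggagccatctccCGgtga
Kcnk5 (chr15:4171375-4171624, + strand): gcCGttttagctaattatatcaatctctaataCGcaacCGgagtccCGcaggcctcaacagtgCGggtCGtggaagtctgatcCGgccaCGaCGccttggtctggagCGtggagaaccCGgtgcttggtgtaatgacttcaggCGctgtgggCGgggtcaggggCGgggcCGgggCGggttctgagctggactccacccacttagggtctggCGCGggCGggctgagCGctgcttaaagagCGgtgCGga
Kcnj16 (chr10:96517074-96517323, + strand): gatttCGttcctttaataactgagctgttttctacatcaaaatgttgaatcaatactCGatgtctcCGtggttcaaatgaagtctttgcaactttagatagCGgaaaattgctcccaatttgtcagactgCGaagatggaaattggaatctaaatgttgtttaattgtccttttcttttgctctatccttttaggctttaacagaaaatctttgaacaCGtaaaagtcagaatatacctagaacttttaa
Kcnj15 (chr11:48070700-48070949, + strand): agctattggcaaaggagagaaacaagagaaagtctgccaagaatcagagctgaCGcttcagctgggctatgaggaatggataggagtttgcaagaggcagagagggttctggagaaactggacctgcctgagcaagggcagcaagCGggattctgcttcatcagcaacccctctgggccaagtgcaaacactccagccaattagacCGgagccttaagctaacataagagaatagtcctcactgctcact
The Kcnj15 window held 3 CpG and the Kcnj16 window 6, where the median over the 12779 array genes with an entry was 12. At most 3 CpG were found in 23.5% of these windows and at most 6 in 34.7%. The Kcns3 window held 11, near that median, and the Kcnk5 window 22, a count that 80.2% of windows did not exceed. Of the 4, only Kcns3 contained GTTAAT on either strand, the half-site of the tubular transcription factors of the HNF1 family, at position -36 from the start. The same letters occurred in 5.72% of all windows, and in 4 of the 61 Kcn windows. TATAAA, searched on both strands, was in none of the 4 and in 11.4% of all windows. These matches describe the letters of the windows and show no binding.

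The share of Kcn genes detected was 65.6%, against 78.5% of the 15645 symbols on the array. By class it was highest among inward rectifiers, with 11 of 14 (78.6%), and tandem-pore channels, with 10 of 13 (76.9%). Of the 29 pore-forming voltage-gated genes 16 were detected, of the 10 silent subunits 6, of the 7 channels opened by calcium or sodium 4, and of the 17 accessory genes 12. A gene with more probes had more chances to be detected. Detected members had 2.05 probes on average and the others 1.68, with a median of 2 in both sets. The part of probe number in these shares was not tested.

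**Figure D1:**
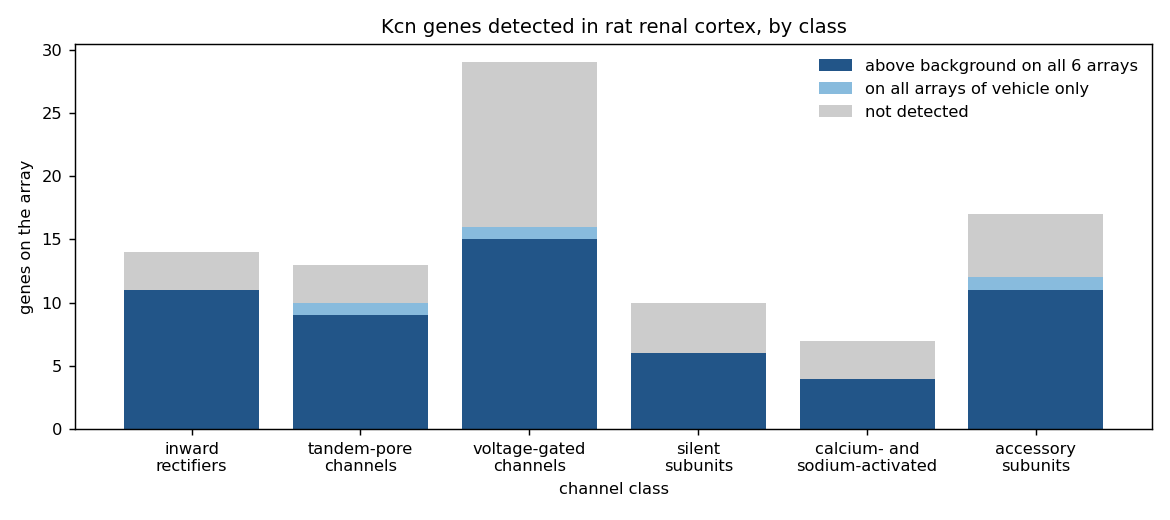
Number of Kcn genes on the array (y axis) in each channel class (x axis), split into those above background on all 6 arrays, those above background on all 3 vehicle arrays but not on all benzyl acetate arrays, and those not detected. Most inward rectifiers (11 of 14) and tandem-pore channels (10 of 13) were detected, beside 16 of 29 voltage-gated channels.

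Within families, members known from tubules stood beside members known mostly from nerve and heart. The detected inward rectifiers were Kcnj3, Kcnj5, Kcnj8, Kcnj9, Kcnj10, Kcnj11, Kcnj12, Kcnj13, Kcnj14, Kcnj15 and Kcnj16, and the undetected ones Kcnj2, Kcnj4 and Kcnj6. Among tandem-pore channels Kcnk1, Kcnk2, Kcnk3, Kcnk4, Kcnk5, Kcnk6, Kcnk10, Kcnk12, Kcnk13 and Kcnk16 were detected, and Kcnk9, Kcnk15 and Kcnk18 were not. The voltage-gated genes detected included Kcna5, Kcna6, Kcna7, Kcna10, Kcnc4, Kcnd1, Kcnd3, Kcnh1, Kcnh2, Kcnh3, Kcnh4, Kcnh6 and Kcnq1. Those not detected were Kcna1, Kcna2, Kcna3, Kcna4, Kcnb2, Kcnc1, Kcnc2, Kcnd2, Kcnh5, Kcnh7, Kcnh8, Kcnq3 and Kcnq5. Several of these, such as Kcna1, Kcna2, Kcnc1 and Kcnq3, encode channels best known from neurons. Of the silent subunits Kcng1, Kcng2, Kcng4, Kcns2, Kcns3 and Kcnv2 were detected, while Kcnf1, Kcng3, Kcns1 and Kcnv1 were not. Kcnma1, Kcnn3, Kcnn4 and Kcnt1 were detected, and Kcnn1, Kcnn2 and Kcnt2 were not. Of the accessory genes Kcnab1, Kcnab2, Kcnab3, Kcne1, Kcne2, Kcne3, Kcne4, Kcnip1, Kcnip4, Kcnmb2, Kcnmb4 and Kcnrg were detected, and Kcne5, Kcnip2, Kcnip3, Kcnmb1 and Kcnmb3 were not.

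Of the 59 detected genes, 56 were above background on all 6 arrays. Kcna5, Kcnab3 and Kcnk4 passed through the vehicle arrays alone, with 2, 1 and 1 of the 3 benzyl acetate arrays above background. Just outside the rule stood Kcna4, Kcnmb1 and Kcnn2, whose best probe was above background on 2 arrays of each group. Among the 31 undetected genes 17 were above background on 0 arrays and 14 on 1 to 4 arrays. Of the 44 detected genes with several probes, 22 had every probe detected and 22 had at least 1 probe that was not. Kcnma1, for example, was detected by 2 of its 4 probes. Signals of different probes have no common scale, so no gene's level is set against another's.

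Markers of the cortex were present, with 5 of 5 for the proximal tubule and 4 of 4 for podocytes. Those of the thick ascending limb, principal cells and intercalated cells were also all detected, so the tissue holds these segments too. Markers from outside the cortex were present in part. Of the adrenal cortex 1 of 5 was detected, with Cyp11b1, Cyp11b2, Star and Mc2r not detected. Of neurons 4 of 6 were detected, without Syt1 and Stmn2, and of skeletal muscle 3 of 5, without Myh4 and Myl1. Markers of glia (4 of 4), inner medulla (3 of 3) and fat (3 of 5) were detected too. Slide 1 held vehicle replicate 1 alone, and slide 2 the remaining 5 arrays. All arrays were scanned on 1 day, and 69.0% to 72.0% of the probes were above background. Benzyl acetate replicate 3 had the lowest 75th percentile of signal, 883. In bulk tissue, fewer cells of a type and less RNA per cell cannot be told apart.

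The groups were compared to see which cortical transcripts differ after dosing, and no potassium channel gene passed the threshold. Limma called 0 of 59 Kcn genes in either direction at an adjusted p under 0.05, beside 0.0% of all genes. At an unadjusted p under 0.05 there were 4, or 6.78%, beside 6.74% of all 31179 genes. They were Kcnk5 and Kcng4 on the higher side, where the background was 3.82%, and Kcns3 and Kcnk4 on the lower side, where it was 2.92%. The ranges of the groups did not overlap for 6 Kcn genes (10.2%), beside 12.8% of all genes. Kcnk5, Kcng4 and Kcnj15 were the 3 higher ones, with a background of 7.51%, and Kcns3, Kcnk4 and Kcnk6 the 3 lower ones, with a background of 5.31%. Kcnk4 had passed detection through the vehicle arrays alone, which favours a lower treated signal. Of the 56 members above background on all 6 arrays, 3 (5.36%) had an unadjusted p under 0.05, beside 6.69% of all genes filtered alike. The groups did not overlap for 5 of the 56 (8.93%), beside 12.8% of all genes tested. In the fit used here, the Kcn shares were near the background in both respects. The share at an unadjusted p under 0.05 depended on the probe rule. It was 6 genes (10.2%) with the detected probe of lowest signal, beside 6.81% of all genes. With the mean of probes it was 5 (8.47%), beside 6.83%. Without vehicle replicate 1, the array on the other slide, the number at an unadjusted p under 0.05 was 7 of the 61 members then tested (11.5%), beside 5.87% of all genes. Without benzyl acetate replicate 3 it was 3 of 60 (5.0%), beside 5.77%.

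On balance the detected members were split between the directions, with 30 higher and 29 lower on average. Their median log2 difference, benzyl acetate minus vehicle, was 0.002, beside 0.012 over all genes. For 30 of the 59 the 95% interval lay inside a 1.5-fold difference in either direction, and for 51 inside a 2-fold difference. The corresponding shares were 50.8% and 86.4%, against 73.9% and 91.5% of all genes tested. The precision varied with signal. Among the 30 members of higher mean signal the median half-width of the interval was 0.33 log2, with 20 inside 1.5-fold, and among the 29 dimmer ones it was 0.45, with 10 inside 1.5-fold.

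**Figure D2:**
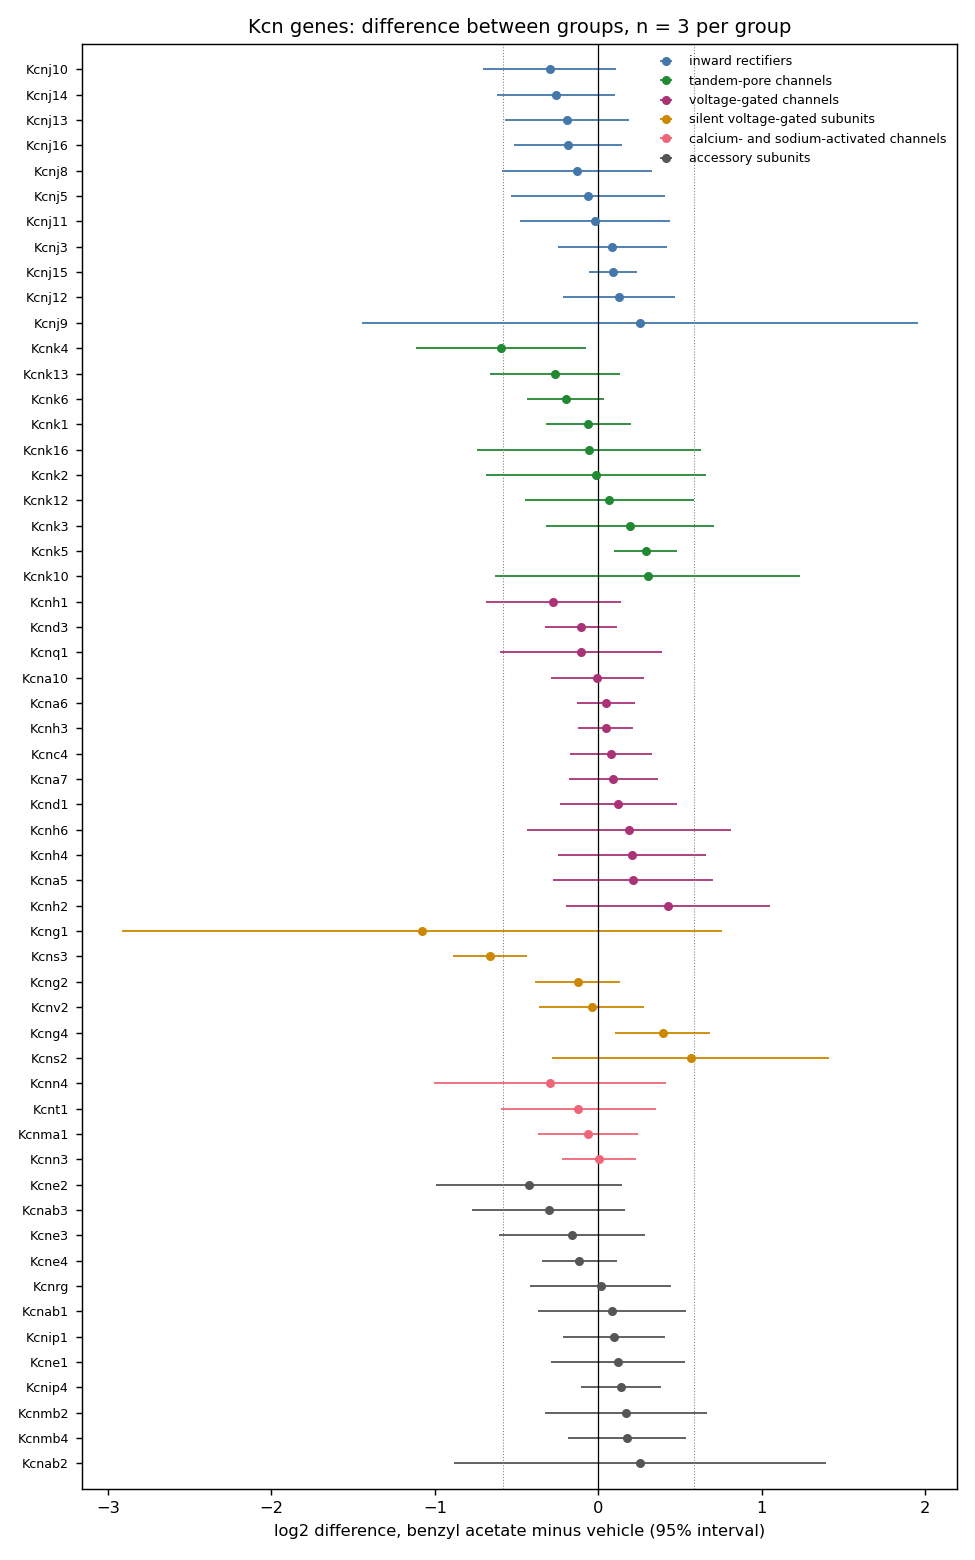
Log2 difference between benzyl acetate and vehicle (x axis, points) with its 95% interval (bars) for the detected Kcn genes described in the text, grouped and coloured by channel class, with 3 arrays per group. Dotted lines mark a 1.5-fold difference. Intervals of Kcns3, Kcnk4, Kcnk5 and Kcng4 leave out 0, and those of Kcng1 and Kcnj9 are the widest.

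Kcns3, a silent subunit that modifies the gating of delayed rectifier channels, had the lowest p of the family. Signals are given as log2 above or below the 75th percentile of the same array, and for Kcns3 they were -1.90, -1.76 and -2.00 with vehicle and -2.45, -2.65 and -2.55 with benzyl acetate. The 3 treated arrays lay below the 3 vehicle arrays, with a gap between the groups wider than the range within either. The group means were -1.88 ± 0.118 (SD, n = 3) and -2.55 ± 0.1 (SD, n = 3). The difference was -0.66 (95% interval -0.89 to -0.43), a 1.58-fold lower signal that did not pass in limma (adjusted p = 0.522). Kcns3 has 1 probe on the array, so no second probe bears on it. Across the 19 alternative settings and left-out replicates the difference ran from -0.72 to -0.52 and the adjusted p from 0.26 to 0.813.

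The other silent subunits showed no common direction. Kcng4 read -4.95, -4.90 and -4.98 with vehicle and -4.80, -4.39 and -4.46 with benzyl acetate. Every treated array lay above every vehicle array, with benzyl acetate replicate 1 nearest to vehicle. The difference was 0.39 (95% interval 0.10 to 0.69), which did not pass in limma (adjusted p = 0.685). It was 0.24 with normexp background correction. A second probe of Kcng4 was not detected. Kcns2 read -5.01, -5.13 and -3.90 with vehicle and -4.09, -3.90 and -4.36 with benzyl acetate. Vehicle replicate 3 stood with the treated arrays, and the difference was 0.57 with a wide interval (95% interval -0.28 to 1.41). It was 0.96 without vehicle replicate 3, 0.34 without vehicle replicate 2 and 0.30 with normexp background correction. Kcng2 differed by -0.13 (-0.39 to 0.14), and Kcnv2, best known from photoreceptors, by -0.039 (-0.36 to 0.28). Both stayed inside a 1.5-fold difference on the probe used. The 4 detected probes of Kcng2 ran from -0.125 to 0.075, and the widest of their intervals from -0.86 to 0.97.

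Kcng1 had the largest difference in the family and also the largest spread. It read -1.31, -2.89 and -2.04 with vehicle and -1.59, -3.77 and -4.11 with benzyl acetate. Benzyl acetate replicate 1 stood among the vehicle arrays, so the groups overlapped. The difference was -1.08 (95% interval -2.92 to 0.76), and the pooled SD within groups was 1.12 log2, where the median member had 0.232. Its other detected probes gave -0.25 and 0.29, in opposite directions.

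**Figure D3:**
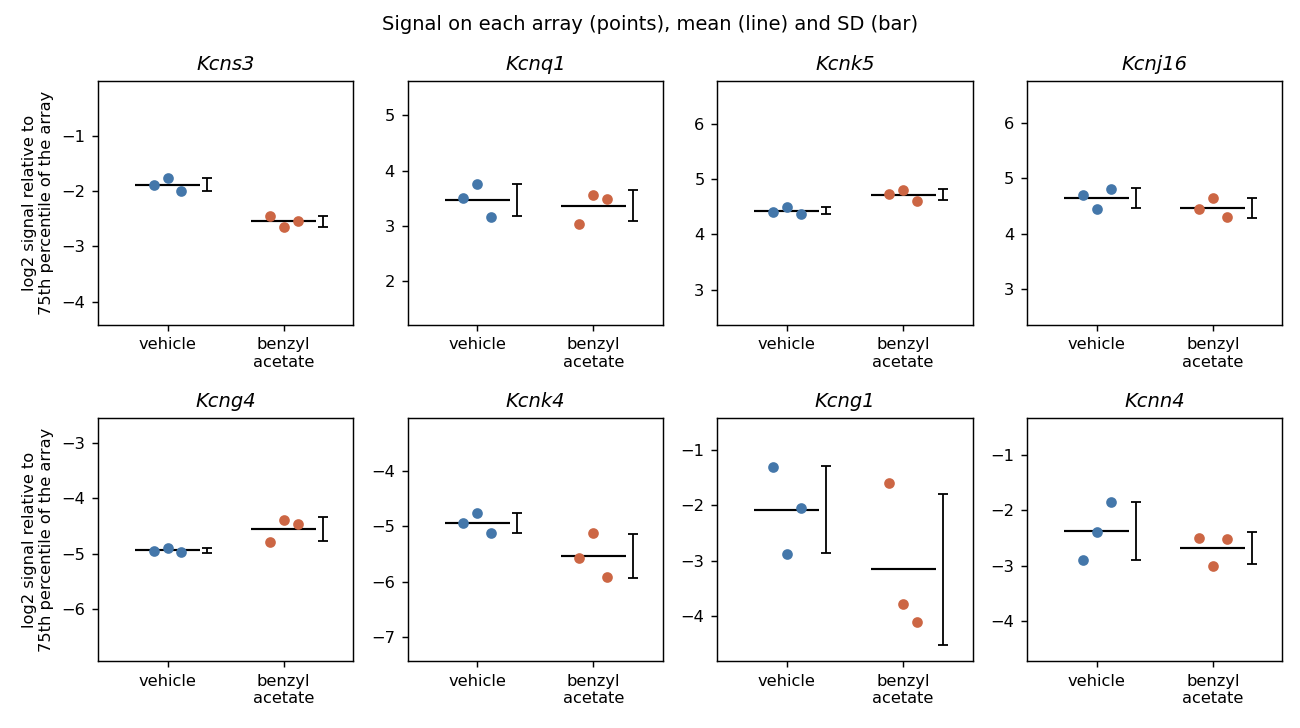
Log2 signal relative to the 75th percentile of each array (y axis) for 8 Kcn genes in vehicle and benzyl acetate animals. Points are single arrays, lines the group means and bars the SD of 3 arrays, and every panel spans the same log2 range around its own mean. Kcns3, Kcnk5, Kcng4 and Kcnk4 show separate groups, while Kcnq1, Kcnj16, Kcng1 and Kcnn4 overlap.

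Among tandem-pore channels the lowest p belonged to Kcnk5, the alkaline-activated leak channel of the proximal tubule that supports bicarbonate reabsorption. It read 4.41, 4.49 and 4.37 with vehicle and 4.72, 4.81 and 4.61 with benzyl acetate. The treated arrays were all above the vehicle arrays. The difference was 0.29 (95% interval 0.094 to 0.48), a 1.22-fold higher signal that did not pass in limma (adjusted p = 0.669). Over the alternatives the difference ran from 0.24 to 0.34 and the adjusted p from 0.26 to 0.847. Kcnk5 had 1 probe. Of the proximal tubule markers 3 of 5 were higher and 2 lower, and their summed log2 signal was 10.32 to 10.40 with vehicle and 10.31 to 10.50 with benzyl acetate. The part of proximal tubule content in the difference was not tested.

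Kcnk4, a mechanosensitive and lipid-sensitive leak channel, read -4.94, -4.77 and -5.11 with vehicle and -5.58, -5.12 and -5.91 with benzyl acetate. The groups were separate by a narrow gap between vehicle replicate 3 and benzyl acetate replicate 2. The difference was -0.60 (95% interval -1.12 to -0.075), with an adjusted p of 0.709 in limma. Only 1 of the 3 treated arrays was above background, so the gene entered the test through the vehicle arrays, a selection that favours a lower treated signal. With normexp background correction the difference was -0.009.

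Kcnk6, a relative of Kcnk1, read -0.26, 0.063 and -0.084 with vehicle and -0.31, -0.29 and -0.28 with benzyl acetate. The treated arrays lay just below all vehicle arrays, and a second probe went the same way, at -0.42. The difference was -0.20 (95% interval -0.43 to 0.038).

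The groups of the other tandem-pore genes overlapped. Kcnk1, a leak channel found along the nephron, read 1.46, 1.53 and 1.19 with vehicle and 1.30, 1.33 and 1.38 with benzyl acetate. Its difference was -0.06 (95% interval -0.32 to 0.20), and a second probe gave -0.052. Kcnk3, an acid-sensitive leak channel, read -0.84, -1.46 and -1.05 with vehicle and -0.93, -1.20 and -0.63 with benzyl acetate. Its difference was 0.20 (95% interval -0.32 to 0.71), and a second probe went the other way, at -0.51. Kcnk2, a stretch-activated channel, read -4.51, -4.58 and -4.79 with vehicle and -4.42, -5.26 and -4.24 with benzyl acetate. Benzyl acetate replicate 2 was its lowest array and the other treated arrays its highest, with a difference of -0.013 (95% interval -0.68 to 0.66). Kcnk10, a relative of Kcnk2, differed by 0.30 (-0.63 to 1.24), Kcnk12 by 0.068 (-0.45 to 0.59), Kcnk13 by -0.26 (-0.66 to 0.13) and Kcnk16 by -0.058 (-0.74 to 0.63). A second probe of Kcnk13 went the other way, at 0.045.

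None of the 11 detected inward rectifiers had an unadjusted p under 0.05, beside 6.74% of all genes. Differences in this class ran from -0.30 to 0.26 with a median of -0.062. Kcnj16, a subunit of the basolateral potassium channel, read 4.69, 4.45 and 4.81 with vehicle and 4.45, 4.65 and 4.29 with benzyl acetate. The arrays of the groups interleaved. The difference was -0.18 (95% interval -0.51 to 0.15). Kcnj10, with which it forms that channel in the distal nephron, read -5.23, -4.62 and -4.83 with vehicle and -5.32, -5.13 and -5.13 with benzyl acetate. Vehicle replicate 1 lay among the treated arrays. The difference was -0.30 (95% interval -0.70 to 0.11), and leaving out 1 replicate gave -0.47 (without vehicle replicate 1) to -0.16 (without vehicle replicate 2). With normexp background correction it was -0.015. Both markers of the distal convoluted tubule that were detected, Slc12a3 and Calb1, were lower on average. Their summed log2 signal was 4.63 to 4.82 with vehicle and 4.43 to 4.62 with benzyl acetate, while Pvalb was not detected. The part of that segment in the Kcnj10 and Kcnj16 values was not tested.

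Kcnj15, another basolateral inward rectifier subunit, had the narrowest interval of the detected members. It read 0.25, 0.25 and 0.26 with vehicle and 0.35, 0.30 and 0.37 with benzyl acetate. The treated arrays were above all vehicle arrays, by a small step. The difference was 0.09 (95% interval -0.058 to 0.24), inside a 1.5-fold difference, and a second probe gave 0.13.

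Kcnj8 and Kcnj11 form the pores of ATP-sensitive channels. Kcnj8, the form of vascular smooth muscle, read 0.90, 0.84 and 0.72 with vehicle and 1.08, 0.35 and 0.65 with benzyl acetate. Benzyl acetate replicate 2 was its lowest array and benzyl acetate replicate 1 its highest. The difference was -0.13 (95% interval -0.59 to 0.33). Smooth muscle markers, with 4 of 5 detected and Cnn1 not, were higher in 3 genes and lower in 1. Their summed log2 signal was 1.46 to 1.601 with vehicle and 1.46 to 1.75 with benzyl acetate, and their part in the Kcnj8 values was not tested. Kcnj11 read -4.96, -5.27 and -5.40 with vehicle and -5.55, -5.18 and -4.96 with benzyl acetate. Its groups overlapped, with a difference of -0.021 (95% interval -0.48 to 0.44). A second probe of Kcnj11 gave 0.50, in the other direction.

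The other inward rectifiers were no more separate. Kcnj12, a classical inward rectifier of muscle, differed by 0.13 (-0.22 to 0.47) and its second probe by 0.11. Kcnj13, an inward rectifier of transporting epithelia, differed by -0.19 (-0.57 to 0.19). Kcnj14 differed by -0.26 (-0.62 to 0.10), with a second probe at -0.49. The G-protein-gated subunits differed by 0.087 (-0.25 to 0.42) for Kcnj3 and -0.062 (-0.53 to 0.41) for Kcnj5. For Kcnj9, of the same group, vehicle replicate 2 stood at -5.13 and the other arrays between -3.92 and -2.56, which gave 0.26 (-1.44 to 1.95). A second probe of Kcnj9 went the other way, at -0.225. On that probe vehicle replicate 2 was the highest array, at -3.30.

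None of the 16 detected voltage-gated genes had an unadjusted p under 0.05, beside 6.74% of all genes. The groups of none of the 16 were separate, beside 12.8% of all genes. Kcnq1, which pairs with Kcne1 at the brush border of the proximal tubule, read 3.50, 3.75 and 3.16 with vehicle and 3.04, 3.57 and 3.49 with benzyl acetate. Each group spanned about the same range. The difference was -0.11 (95% interval -0.60 to 0.39), and its other probes gave -0.069 and -0.067. Kcne1 read 0.15, 0.49 and 0.30 with vehicle and 0.63, 0.56 and 0.11 with benzyl acetate. Its groups overlapped as well, with a difference of 0.12 (95% interval -0.29 to 0.53).

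Kcnh2, the rapid delayed rectifier of heart muscle, read -4.92, -5.96 and -5.38 with vehicle and -5.02, -4.97 and -4.98 with benzyl acetate. Its treated arrays lay within 0.05 log2 of each other, while vehicle replicate 2 was more than 0.5 below the next array. The difference was 0.43 (95% interval -0.20 to 1.05). It was 0.16 without vehicle replicate 2, 0.68 without vehicle replicate 1 and 0.205 with normexp background correction.

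Of the detected Kcna genes, Kcna10 is the one described in the apical membrane of the proximal tubule. It read -4.75, -4.67 and -4.85 with vehicle and -4.70, -4.61 and -4.98 with benzyl acetate. The groups overlapped, and the difference was -0.005 (95% interval -0.29 to 0.28). Kcna5, a delayed rectifier of heart and vessels, read -5.46, -5.47 and -5.50 with vehicle and -4.85, -5.65 and -5.30 with benzyl acetate. Benzyl acetate replicate 1 was its highest array and replicate 2 its lowest, and the difference was 0.21 (95% interval -0.28 to 0.70). Like Kcnk4, it was not above background on every treated array. Kcna3, the channel of T lymphocytes, was not detected. Among the voltage-gated genes the narrowest intervals belonged to Kcnh3, at 0.045 (-0.12 to 0.22), and Kcna6, at 0.045 (-0.13 to 0.22). The other detected probes of both genes went the other way. They gave -0.20 and -0.053 for Kcnh3 and -0.27 and -0.072 for Kcna6. The differences of Kcna7, Kcnc4, Kcnd1, Kcnd3, Kcnh1, Kcnh4 and Kcnh6 ran from -0.28 for Kcnh1 to 0.21 for Kcnh4.

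Accessory subunits included 0 of 12 with an unadjusted p under 0.05 in limma, beside 6.74% of all genes. Kcne2, a partner of Kcnq1 and Kcnh2, read -3.82, -4.16 and -3.77 with vehicle and -4.37, -4.75 and -3.90 with benzyl acetate. Benzyl acetate replicate 3 stood among the vehicle arrays, and the difference was -0.42 (95% interval -0.99 to 0.15). It was -0.64 without benzyl acetate replicate 3 and -0.22 without benzyl acetate replicate 2. Kcne3, a subunit that keeps Kcnq1 open, read -4.76, -4.58 and -4.21 with vehicle and -4.86, -4.42 and -4.75 with benzyl acetate. The groups overlapped, with a difference of -0.16 (95% interval -0.61 to 0.29). Kcne4, an inhibitory subunit, differed by -0.12 (-0.35 to 0.11).

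Kcnmb4, a beta subunit of the large-conductance channel, read -4.00, -3.91 and -4.10 with vehicle and -4.03, -3.93 and -3.52 with benzyl acetate. Benzyl acetate replicate 3 was its highest array. The difference was 0.18 (95% interval -0.19 to 0.54), and a second probe gave -0.18. Kcnmb2, another beta subunit, differed by 0.17 (-0.33 to 0.67), and its 3 probes had one sign. Of the beta subunits of Kcna channels, Kcnab1 differed by 0.085 (-0.37 to 0.54) and Kcnab2 by 0.25 (-0.88 to 1.39). Kcnab3 differed by -0.30 (-0.77 to 0.17) and had passed detection on the vehicle arrays alone. The calcium-binding partners of Kcnd channels, Kcnip1 and Kcnip4, differed by 0.098 (-0.21 to 0.41) and 0.14 (-0.11 to 0.38). Kcnrg, which regulates voltage-gated channels, differed by 0.014 (-0.42 to 0.45).

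Of the channels opened by calcium or sodium, Kcnma1 is the flow-sensitive large-conductance channel of the distal nephron. It read -2.26, -1.92 and -1.94 with vehicle and -2.11, -2.22 and -1.96 with benzyl acetate. The groups overlapped, and the difference was -0.062 (95% interval -0.37 to 0.24). Markers of intercalated cells, which carry this channel, were lower in 4 of 5 genes, with a summed log2 signal of 6.97 to 7.41 with vehicle and 6.42 to 6.71 with benzyl acetate. None of the 5 passed in limma, and their part in the Kcnma1 values was not tested.

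Kcnt1, opened by sodium, read -1.91, -1.91 and -2.56 with vehicle and -2.31, -2.14 and -2.30 with benzyl acetate. Vehicle replicate 3 was its lowest array, and the difference was -0.12 (95% interval -0.60 to 0.35). It was -0.34 without vehicle replicate 3 and -0.011 without vehicle replicate 2. Kcnn3, a small-conductance calcium-activated channel, differed by 0.002 (-0.22 to 0.23).

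Kcnn4, the intermediate-conductance channel of lymphocytes, red cells and epithelia, read -2.90, -2.39 and -1.85 with vehicle and -2.50, -3.01 and -2.53 with benzyl acetate. Vehicle replicate 3 was the highest array and benzyl acetate replicate 2 the lowest. The difference was -0.29 (95% interval -1.003 to 0.41), and without vehicle replicate 3 it was -0.029 and without vehicle replicate 1 -0.55. The other probes of Kcnn4 were also highest on vehicle replicate 3, at -3.73 and -3.90. T cell markers were highest on that array too. Of 6 markers 4 were detected, all lower on average with benzyl acetate, while Cd3e and Cd5 were not detected. Their summed log2 signal was 1.57 on vehicle replicate 3 and -0.14 to 0.17 on the treated arrays. It was 0.41 on vehicle replicate 1, where Kcnn4 was lowest among the vehicle arrays, and 0.13 on vehicle replicate 2. All 5 macrophage markers were also lower on average with benzyl acetate. Summed, these read 6.26, 6.43 and 6.44 with vehicle and 6.34, 5.98 and 6.60 with benzyl acetate. The part of either cell type in the Kcnn4 signal was not tested.

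Second probes give a view of how far a difference of this size depends on the probe. Of the 24 members with several detected probes, 12 had probes of one sign and 12 had probes of both signs. The probes of Kcnj12, Kcnj15, Kcnk1, Kcnk12, Kcnma1 and Kcnq1 lay close together. Those of Kcng1, Kcnk3, Kcnj11 and Kcnj9 lay farther apart. Members of a family share sequence, and cross-hybridisation between them was not tested.

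**Figure D4:**
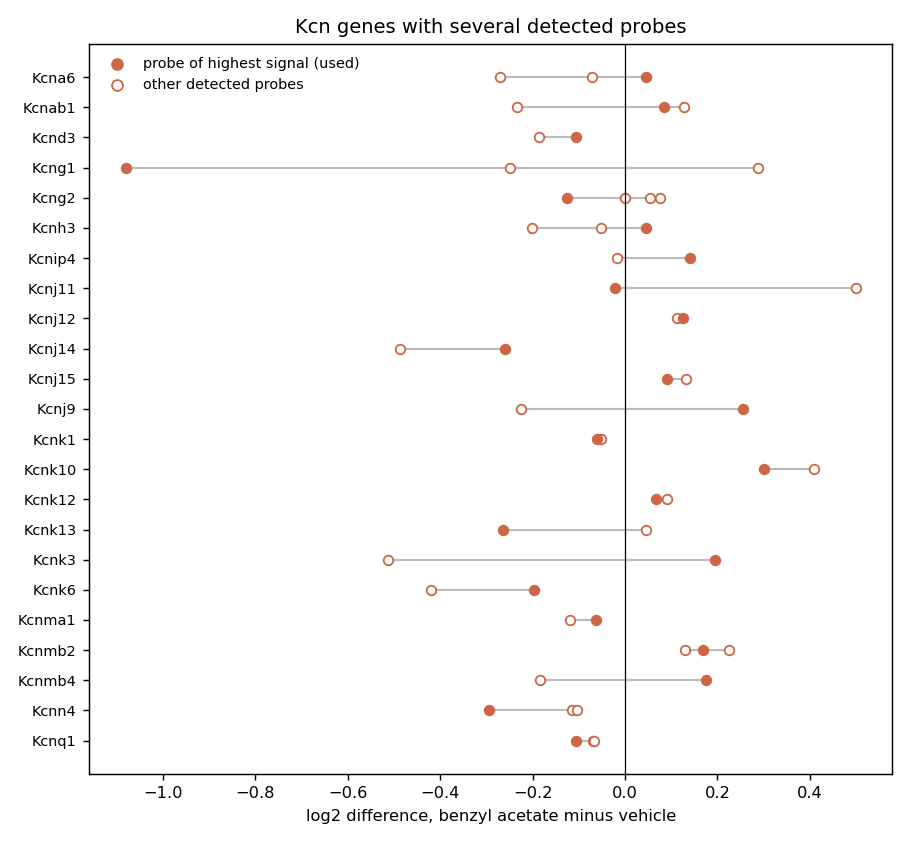
Log2 difference between benzyl acetate and vehicle (x axis) for each detected probe of the Kcn genes described that have several detected probes (y axis). Filled points are the probe of highest signal, which was used for the gene, and open points the others. Kcng1, Kcnk3, Kcnj11 and Kcnj9 are among the genes with probes on both sides of 0.

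The spread within groups was larger for these genes than for the typical gene. The median pooled SD within groups was 0.232 log2 against 0.14 over all genes. With 1 array per animal, differences between animals and measurement noise cannot be told apart in this SD. The pooled SD exceeded 0.5 for Kcng1, Kcnj9, Kcnab2, Kcnk10 and Kcns2. For Kcnab2 vehicle replicate 3, at -5.30, and benzyl acetate replicate 2, at -5.00, stood below the other 4 arrays, which lay between -4.19 and -3.61. For Kcnk10 benzyl acetate replicate 2 stood highest, at -3.63.

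Among 37 partners of the channels and genes of potassium handling, 31 were tested and 0 passed in limma. At an unadjusted p under 0.05 there were 0, beside 6.74% of all genes. The groups did not overlap for 2 of the 31 (6.45%), beside 12.8% of all genes. The median log2 difference of the partners was -0.021. On average 21 were lower (67.7%) and 10 higher (32.3%), beside 46.0% and 54.0% of all genes. Abcc9, the sulfonylurea receptor that pairs with Kcnj8 in smooth muscle, had the lowest p. It read -0.35, -0.038 and -0.27 with vehicle and -0.31, -0.69 and -0.60 with benzyl acetate, a difference of -0.31 (-0.64 to 0.017). Its highest treated array lay among the vehicle arrays. Abcc8, its counterpart for Kcnj11, read -1.60, -1.19 and -3.50 with vehicle and -2.15, -2.21 and -3.59 with benzyl acetate, a difference of -0.55 (-2.27 to 1.17). Vehicle replicate 3 and benzyl acetate replicate 3 were both low.

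The salt cotransporters overlapped between the groups as well. Slc12a1, the cotransporter of the thick ascending limb, read 4.66, 4.29 and 3.71 with vehicle and 3.84, 4.14 and 3.83 with benzyl acetate, a difference of -0.28 (-0.89 to 0.33). Slc12a3, that of the distal convoluted tubule, read 4.33, 4.51 and 4.58 with vehicle and 4.23, 4.26 and 4.36 with benzyl acetate, a difference of -0.19 (-0.42 to 0.031).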

How the data were processed

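Renal cortex RNA of 6 rats, 3 per group by the sample labels, was measured on 1-colour Agilent arrays. The deposited scanner tables hold linear intensity values and 0 or 1 flags for detection and outliers, produced with version 10.7 of Agilent Feature Extraction (submitters' processing notes). Per the file headers, background had been subtracted from the processed signal, with no scaling across arrays. The deposited value table equalled that signal divided by the array's 75th percentile within an SD of 0.0003 log2, so it is linear and uncentred, with column medians of 0.1102 to 0.1148.

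Processed signals were put on a log2 scale and centred on the 75th percentile of the 61537 non-control probes of each array, without outlier spots. No spot was saturated. Probes were named through their accession in a RefSeq table of GRCr8, which matched 28206 probes and 15645 symbols. The array grid names another build. The detected probe of highest mean signal stood for a gene. Limma 3.58.1 in R 4.3.3 (lmFit, eBayes) was fitted to both groups over 31179 genes with Benjamini-Hochberg adjustment. It was tested on simulated data, where 28.2% of genes changed 1.5-fold and 62.2% of those changed 2-fold were called, among 200 changed genes of 31165, and 5.71% of calls were false. The number of arrays limits precision. Normexp used the median spot signal.

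The members and lists were chosen with earlier results of these data known. Given on every array are Kcns3, the 5 members of lowest p in each direction and a list of renal channels. Genes outside that rule were named after their values were seen. Some genes are counted in totals or left out, and are not reported here. Replicate numbers did not pair the arrays: deviations of same-numbered arrays correlated at -0.108, 0.008 and 0.001.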

Additional observations from a re-analysis of the deposited data

How the results depend on the processing

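The 19 alternatives changed the block (replicate number or slide), background correction (normexp, offset 50), scaling (cyclic loess, median, quantile), filter, probe rule, outlier spots, variance prior or source of values, or left out 1 replicate. No Kcn gene was called under any of them, and Kcns3 stayed lower in all of them. With the replicate block, where numbers do not pair the arrays, Kcns3 was at -0.66 (adjusted p = 0.672), with 6 Kcn genes (10.2%) at an unadjusted p under 0.05, beside 6.65% of all genes. Over all genes limma called 2 lower with normexp, and leaving out a replicate it called 0 to 3 higher and 0 to 2 lower. The number of Kcn genes at an unadjusted p under 0.05, a count added after seeing the data, was 7 (11.9%) with the slide as a block, beside 5.89% of all genes, and 10 (11.1%) with no filter on dim probes, beside 14.5%. Leaving out a replicate it was 3 to 7 (5.0% to 11.5%), beside 5.71% to 7.58% of all genes, with 7 without vehicle replicate 1. Without a filter all 90 members enter. Of the 24 other named genes, 15 kept their sign. Signs turned with normexp for Kcna10 (0.094), Kcne3 (0.029), Kcnj11 (0.09) and Kcnk2 (0.072). With the slide as a block they turned for Kcnj11 (0.105) and Kcnk2 (0.043). They also turned with the lowest-signal probe for Kcnj11 (0.5), Kcnk3 (-0.51) and Kcnmb4 (-0.18), and with the mean of probes for Kcnj11 (0.24), Kcnk3 (-0.16) and Kcnmb4 (-0.004). Leaving out a replicate, the ranges were -0.084 to 0.10 for Kcna10, -0.16 to 0.15 for Kcnj11, -0.32 to 0.042 for Kcnj8, -0.16 to 0.01 for Kcnk1, -0.22 to 0.30 for Kcnk2 and -0.26 to 0.056 for Kcnq1. Without changing sign, such values ran from 0.003 to 0.41 for Kcna5, 0.022 to 0.28 for Kcne1, -0.29 to -0.004 for Kcne3, -0.29 to -0.098 for Kcnj16 and 0.024 to 0.34 for Kcnk3. The cause was not tested. Dim signal and 3 arrays per group limit what could be detected.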
